A study of Mus musculus with 20 samples.

Results

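The 80 rows described here carry nuclear genes named for subunits of the 5 oxidative phosphorylation complexes, out of 37051 loci in a deposited count table of mouse striatum. They were chosen by symbol (Nduf with a, b, c, s or v and a digit, Sdha to Sdhd, Uqcr, Cox4 to Cox8, and Atp5), with 1 symbol per row, no pseudogene symbol and a summed count of at least 400 over the 20 libraries. The measured summed count therefore entered the choice, and no difference between groups did. By complex, 34 rows belong to complex I, 4 to complex II, 8 to complex III, 16 to complex IV and 15 to complex V. The other 3 rows matched the names but are not subunits: Cox4nb (now Emc8, of an endoplasmic reticulum membrane complex), Atp5s and Atp5sl (now Dmac2). The 77 rows in the complexes carry 76 symbols, because Ndufv3 had a pair of loci. All 80 rows passed the filter on low counts, as did 17206 loci in all.

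Oxidative phosphorylation takes electrons from NADH at complex I and from succinate at complex II, and passes them through complex III to oxygen at complex IV. The protons pumped by complexes I, III and IV drive complex V, the ATP synthase. Most of the subunits are encoded in the nucleus, and the mitochondrial genome encodes the catalytic core of complex IV, cytochrome b of complex III and some membrane subunits of complexes I and V. Neurons draw most of their ATP from this pathway. The mitochondrially encoded subunits were not analysed here.

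The mice were males of the Collaborative Cross, a population bred from several inbred founder strains, aged about 6 months. One line had been selected for overactivity in the cage and the other served as its control. Mice of each line received saline or d-amphetamine, a releaser of dopamine, at 25 mg/kg, and the whole striatum was taken 2 hours later, which gave 4 groups of 5 mice with 1 paired-end RNA library per mouse. The mice of a line share their line, so p-values measure the spread between these mice and not between independently selected lines. Levels are in CPM, read counts divided by library size after TMM scaling. Differences are log2 fold changes, some of them given with a standard error (SE). A gene passed at an adjusted p under 0.05 (edgeR quasi-likelihood test, Benjamini-Hochberg adjustment over all 17206 genes).

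Library totals lay between 31393788 and 53773028 counts, and the 77 rows in the complexes took 0.813% to 0.956% of them. All 10 markers of striatal projection neurons were measured, with a summed level of 4592 to 7573 CPM per library. Markers of other tissue differed between libraries. The summed level of the 10 thalamic, hypothalamic and septal markers was 160.5 to 273.5 CPM in control line saline, 180.1 to 235.2 CPM in control line amphetamine, 215.2 to 505.4 CPM in overactive line saline and 176.0 to 461.7 CPM in overactive line amphetamine. The 10 cortical excitatory markers summed to 309.3 to 579.3 CPM in overactive line saline and 379.6 to 1371 CPM in overactive line amphetamine. In control line saline they summed to 483.7 to 1189 CPM, and in control line amphetamine to 919.6 to 1267 CPM. No marker of these 3 lists was at 0 in all libraries. Mbp and Slc1a2, which brain tissue expresses strongly, were listed at 0 in all 20 libraries, so a 0 in this table can be a failed estimate. In whole tissue, fewer cells of a type and less RNA per cell cannot be told apart.

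Nuclear subunit genes are often described with GC-rich promoters, in some of which nuclear respiratory factor 1 (NRF1) and the GABP or ETS factors bind, and the promoters below show the NRF1 motif in place. Of the member genes, 62 had a promoter of 250 bases before to 50 after the start site in RefSeq (GRCm38.p6). The NRF1 motif, the run of capitals in the sequences below and its own reverse complement, lay in 5 of the 62 (8.06%) and in 290 of all 27025 genes with a promoter (1.07%). The 5 were Ndufa11, Uqcrc1, Cox6a1, Atp5g2 and Atp5k. The ETS motif CCGGAAGTG, searched on both strands, lay in 2 of the 62 (3.23%, Ndufs3 and Uqcrh) and in 608 of all genes (2.25%), and no member promoter held both. The median number of CpG in the 250 bases before the start was 14.5 in member genes and 6 in all genes. A match is a description of the letters and not of binding, which was not measured. Sequences of 4 of the 5 are given 5′ to 3′ with the NRF1 motif in capitals, at chr17:56717662-56717751 (plus strand), chr5:115349071-115349160 (minus), chr15:102671048-102671129 (minus) and chr5:108434400-108434489 (minus), in this order.
Ndufa11: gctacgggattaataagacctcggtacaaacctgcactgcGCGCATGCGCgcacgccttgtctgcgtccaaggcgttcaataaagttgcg
Cox6a1: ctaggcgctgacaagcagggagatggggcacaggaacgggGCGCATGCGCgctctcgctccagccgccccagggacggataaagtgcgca
Atp5g2: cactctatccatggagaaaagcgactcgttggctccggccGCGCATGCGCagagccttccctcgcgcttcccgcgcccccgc
Atp5k: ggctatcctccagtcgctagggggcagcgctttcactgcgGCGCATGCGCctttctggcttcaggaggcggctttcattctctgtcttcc

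The summed level of all 77 rows was nearly the same in the 4 groups. It was 8735 ± 202 CPM (SD, n = 5) in control line saline, 8632 ± 154 CPM in control line amphetamine, 8616 ± 433 CPM in overactive line saline and 8741 ± 289 CPM in overactive line amphetamine. The range within a group was wider than the differences between the means: overactive line saline alone ran from 8178 to 9301 CPM, which takes in every library of the other groups. Complex V made up the largest sum, with group means of 3341, 3310, 3247 and 3304 CPM in the same order of groups. Complex I followed with 2213, 2173, 2199 and 2222 CPM and complex IV with 1791, 1776, 1797 and 1828 CPM. Complex III summed to 824, 814, 812 and 824 CPM and complex II to 565, 558, 561 and 563 CPM. In none of the complexes did the ranges of any pair of groups separate.

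**Figure D1:**
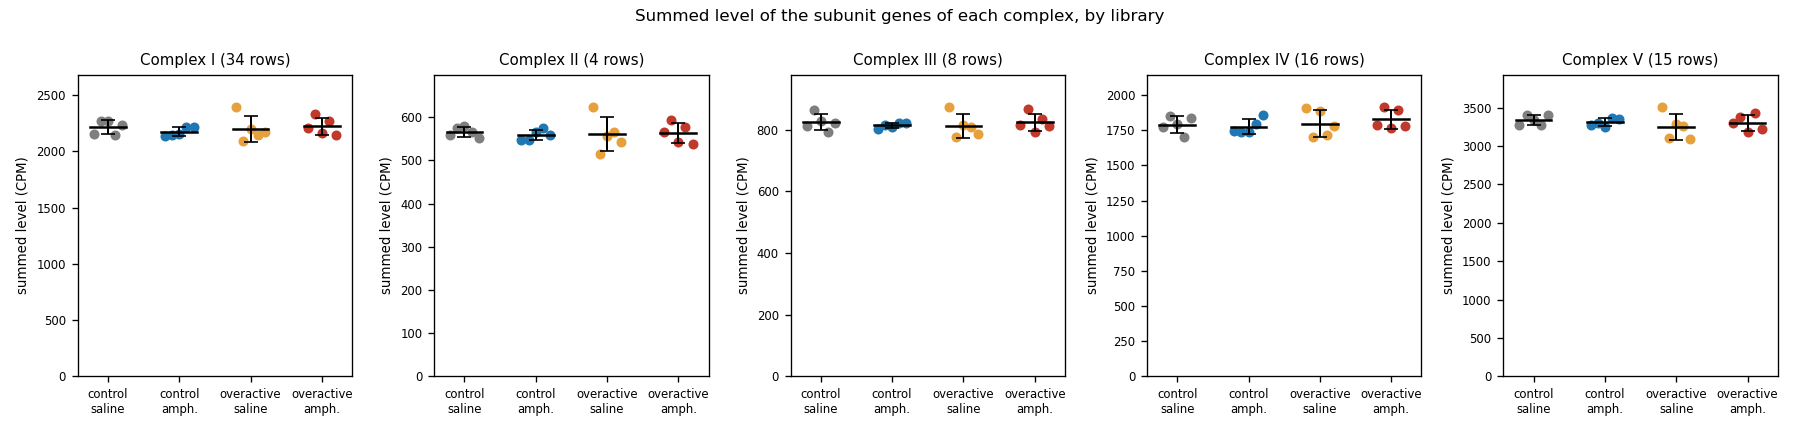
Summed level in CPM of the rows of each complex, 1 point per library, with the group mean (bar) and SD (whisker) of 5 libraries; the axes start at 0. In all 5 complexes the ranges of the 4 groups overlap, and overactive line saline has the widest range of summed level over all rows (8178 to 9301 CPM).

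After amphetamine in the control line none of the 80 members passed the test, and neither did any of the 17206 genes (0% called). The medians of the log2 fold change were below 0 in every complex: -0.04 in complex I, -0.02 in II, -0.03 in III, -0.02 in IV and -0.03 in V, beside -0.00 over all genes. Of the 77 subunit rows, 57 (74.0%) were lower in sign, beside 51.2% of all genes. Members are not independent of each other, so these shares describe the 10 libraries. At an unadjusted p under 0.05 stood 5 members, beside 5.56% of all genes, and DESeq2 called 0 members, with 5 at that unadjusted level. For 71 of the 77 rows, the 95% interval of the fold change lay within 1.25-fold in either direction.
Beside these small differences, the marker scores moved as well: the endothelial and pericyte markers were lower in sign for 8 of 8 genes (median log2 -0.18) and the meningeal and fibroblast markers for 8 of 8 (median -0.47), while 9 of 10 cortical markers were higher (median 0.45). None of these markers passed the test, and their part in the subunit values was not tested. The 88 tested rows of the cytoplasmic ribosome pattern had a median of -0.09, with 78 lower in sign. After amphetamine in the overactive line their median was -0.05, with 76 lower in sign.

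After amphetamine in the overactive line the medians turned to 0 or above: 0.00 in complex I, 0.01 in II, 0.01 in III, 0.04 in IV and 0.03 in V, beside -0.00 over all genes. Of the 77 rows, 47 were higher in sign, beside 48.3% of all genes. No member passed, again with 0% of all genes called by edgeR, and no member reached an unadjusted p under 0.05, beside 8.03% of all genes. DESeq2 called 40 genes here, none of them a member, and 0 members at the unadjusted level. The cortical markers were higher in sign for 10 of 10 (median log2 1.36) and the striatal projection neuron markers lower for 10 of 10 (median -0.16). The ependymal and choroid plexus markers were lower for 6 of 7 (median -0.60) and the interneuron markers for 4 of 7 (median -0.19). None of these markers passed the test either, and their part in the subunit values was not tested. Over both lines 0 members and 0% of genes passed edgeR, with 4 members at an unadjusted p under 0.05, beside 11% of all genes, and the same 2 counts of members (0 and 4) by DESeq2.

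The response to amphetamine was compared between the lines directly, as the difference of the differences. This was above 0 in sign for 60 of the 77 rows, beside 51.4% of all genes, with medians of 0.04 in complex I, 0.02 in II, 0.01 in III, 0.03 in IV and 0.05 in V. No member passed and 0% of genes were called. 1 member, Cox5b, had an unadjusted p under 0.05, beside 2.96% of all genes, while DESeq2 had 2 at that level and 0 past the adjusted threshold. The saline groups enter this difference and both responses above, so the signs are not separate observations. The interval of the difference stayed within 1.25-fold for 65 of 77 rows.

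**Figure D2:**
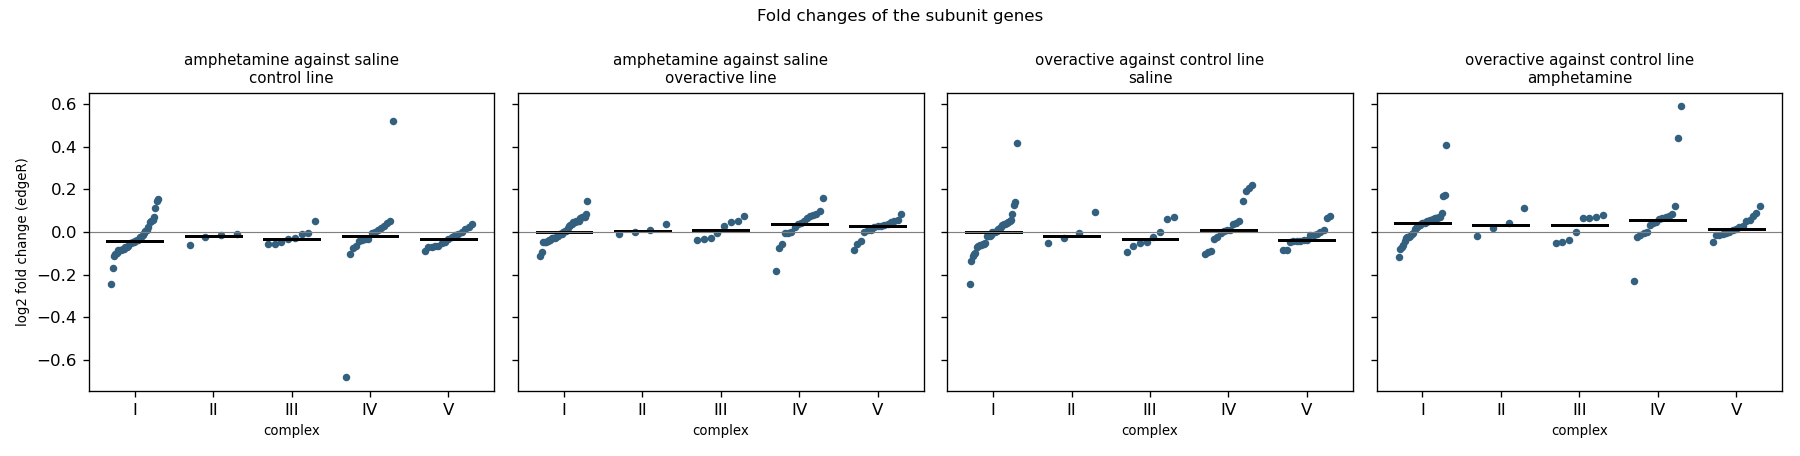
Log2 fold change of each subunit row (points, ordered by value within a complex) and the median of the complex (bar) in the 4 comparisons between pairs of groups. The points furthest from 0 are thinly counted complex IV genes (Cox6b2, Cox4i2, Cox6a2) and Ndufs5 of complex I, and the bars lie between -0.04 and 0.06.

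Between the lines, 1 of the 80 members passed. Over both treatments Ndufc1 was higher in the overactive line, where 7.02% of all genes were called (3.71% higher and 3.31% lower). In saline 0 members passed beside 1.11% of all genes (0.639% higher and 0.471% lower), and under amphetamine 0 beside 0.453% (0.221% higher and 0.232% lower). At an unadjusted p under 0.05 stood 2 members in saline (17.3% of all genes), 4 under amphetamine (12.9%) and 6 over both treatments (25.6%). DESeq2 called 0, 0 and 2 members in these comparisons and had 4, 4 and 7 at the unadjusted level. Marker lists moved with the line as well, over both treatments. The striatal projection neuron markers were lower in sign for 9 of 10 (median log2 -0.13, 0 passed). The thalamic, hypothalamic and septal markers were higher in sign for 10 of 10 (median log2 0.67, 0 passed) and the cortical markers lower for 9 of 10 (median -0.71, 1 passed). Of the ependymal and choroid plexus markers 6 of 7 were higher (median 0.76, 2 passed), and of the oligodendrocyte markers 6 of 7 (median 0.19, 1 passed). Of 7 astrocyte markers 2 passed as higher and 1 as lower, and of 8 endothelial and pericyte markers 1 passed as higher (edgeR). The part of these cells in the subunit values was not tested.
Median log2 fold changes of the members over both treatments were 0.02 in complex I, 0.00 in II, 0.00 in III, 0.03 in IV and 0.00 in V. In saline they were 0.00, -0.02, -0.03, 0.01 and -0.04, and under amphetamine 0.04, 0.03, 0.03, 0.06 and 0.01. Higher in sign were 48 of 77 rows over both treatments (50.2% of all genes), 35 in saline (49.9%) and 53 under amphetamine (51.0%). In no comparison between a pair of groups did any member have CPM values that did not overlap, beside 1% of all genes for amphetamine in the control line, 0.761% for amphetamine in the overactive line, 4.26% for the line in saline and 2.93% for the line under amphetamine.

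Complex I is the largest of the complexes, with core subunits that carry flavin and iron-sulfur clusters and many accessory subunits around them. Ndufc1 (XLOC_021009, locus on chromosome 3, 51405478 to 51408955) encodes a small accessory subunit of its membrane arm. Its CPM were 26.4, 26.6, 30.1, 26.6 and 28.9 in control line saline libraries 1 to 5 and 27.6, 27.3, 27.6, 29.4 and 27.2 in control line amphetamine. They were 31.7, 32.0, 27.4, 27.5 and 32.8 in overactive line saline and 28.2, 31.6, 32.5, 33.6 and 30.8 in overactive line amphetamine. Of the 10 overactive libraries, 3 lay within the range of the control line (overactive line saline 3 and 4 and overactive line amphetamine 1), and the other 7 lay above all 10 control libraries. Over both treatments the difference was log2 0.15 (SE 0.04, 95% interval 0.06 to 0.24, edgeR adjusted p = 0.0454). It was 0.13 in saline (edgeR adjusted p = 0.296) and 0.17 under amphetamine (edgeR adjusted p = 0.255), and the responses to amphetamine differed by 0.04 (SE 0.09) between the lines. The call did not hold in every setting. With 1 library left out it held without control line saline 3, control line amphetamine 4, overactive line saline 3 or 4 or overactive line amphetamine 1, and was lost without any 1 of the other 15 (log2 0.14 to 0.17 and edgeR adjusted p = 0.0234 to 0.0784 over the 20 fits). It was lost without the filter on low counts (edgeR adjusted p = 0.0570) and without the 4 libraries highest in thalamic markers (edgeR adjusted p = 0.169), while the difference stayed at 0.15 in both. Those 4 libraries were all of the overactive line, so the fit without them also had fewer libraries. For the lost call, fewer libraries and less of these markers cannot be told apart.
None of the 8 other tested loci within 300 kb passed in this comparison. The histone methyltransferase gene Setd7 was at log2 0.16 (edgeR adjusted p = 0.0824) and Naa15, an acetyltransferase subunit, at -0.07 (edgeR adjusted p = 0.0921), so the neighbours lay on both sides of 0.
The 250 bases before the start of Ndufc1 (RefSeq, GRCm38.p6, chr3:51408956-51409205, minus strand) are shown because it was the only member that passed, with its 14 CpG in capitals. They held neither motif.
Ndufc1: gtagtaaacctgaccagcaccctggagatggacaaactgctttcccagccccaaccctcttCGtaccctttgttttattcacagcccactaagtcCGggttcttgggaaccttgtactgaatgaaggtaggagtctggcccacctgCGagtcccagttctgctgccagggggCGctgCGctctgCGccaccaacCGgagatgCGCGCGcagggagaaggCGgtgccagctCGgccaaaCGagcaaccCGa

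Core subunits Ndufs1 and Ndufv1 of complex I lay close to 0 in every comparison. Ndufs1, which holds iron-sulfur clusters of the electron input module, was at log2 0.05 after amphetamine in the control line and 0.07 in the overactive line. Ndufv1, which binds NADH and flavin, was at -0.07 and -0.02. Neither passed in any of the 7 comparisons. Outside the naming rule, and chosen after their values were seen, 2 further complex I members, Ndufs6 and Ndufb10, had an unadjusted p under 0.05 after amphetamine in the control line, beside Ndufb4, which the rule names. Ndufs6, a zinc-binding accessory subunit, was at 36.6, 39.6, 43.0, 36.9 and 44.4 CPM in control line saline and 33.6, 39.5, 35.1, 35.4 and 34.9 CPM in control line amphetamine (log2 -0.17, SE 0.06, edgeR adjusted p = 0.880). Ndufb4, an accessory subunit of the membrane arm, was at 31.1, 32.0, 37.5, 36.0 and 37.0 CPM in control line saline and 38.1, 36.0, 37.8, 38.8 and 41.5 CPM in control line amphetamine (log2 0.15, SE 0.06, edgeR adjusted p = 0.880). Both pairs of groups overlapped. Ndufb10 was at log2 -0.10 (SE 0.04). A further member outside the rule, Ndufs3, was at log2 -0.09 (SE 0.04, edgeR adjusted p = 0.142) between the lines over both treatments.

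Ndufs5, an accessory subunit of complex I, stood out for its spread and not for a difference between groups. It was chosen after its values were seen. Its CPM were 18.0, 18.1, 36.7, 14.9 and 20.6 in control line saline and 35.5, 14.5, 33.9, 19.8 and 17.1 in control line amphetamine. They were 36.9, 33.1, 35.1, 20.9 and 18.8 in overactive line saline and 20.4, 38.0, 15.4, 35.8 and 50.8 in overactive line amphetamine. In 11 libraries it lay at or below 20.9 CPM and in the other 9 at or above 33.1 CPM, with no library between, and each of the 4 groups held libraries on both sides. The SD within groups was 0.57 on the log2 CPM scale, the widest of the members and at percentile 98.6 among genes of like level. The line difference over both treatments was log2 0.41 (SE 0.23, edgeR adjusted p = 0.276), less than the spread between mice. Its locus lies on chromosome 4, 123712709 to 123718186, and the span holds no other coding gene. Within 300 kb, Gm10572 had an SD of 1.25 (0.530 to 10.7 CPM), while Akirin1 (0.08), Rragc (0.07) and the locus shared by D830031N03Rik and Macf1 (0.09) varied little. Mycbp (0.16) and the thinly counted Rhbdl2 (0.39) lay between. Gm10572 was lowest in control line saline 4, control line amphetamine 2 and overactive line amphetamine 3 (0.603, 0.735 and 0.530 CPM), as was Ndufs5. Both were highest in overactive line amphetamine 5. Elsewhere they parted, as in control line amphetamine 4 (7.14 CPM of Gm10572, 19.8 of Ndufs5) and control line saline 3 (3.48 and 36.7). The promoter of Ndufs5 is shown because no other member varied so widely at its level (RefSeq, GRCm38.p6, chr4:123718187-123718436, minus strand, 18 CpG in capitals). It is the reference sequence, and the alleles of these mice were not read.
Ndufs5: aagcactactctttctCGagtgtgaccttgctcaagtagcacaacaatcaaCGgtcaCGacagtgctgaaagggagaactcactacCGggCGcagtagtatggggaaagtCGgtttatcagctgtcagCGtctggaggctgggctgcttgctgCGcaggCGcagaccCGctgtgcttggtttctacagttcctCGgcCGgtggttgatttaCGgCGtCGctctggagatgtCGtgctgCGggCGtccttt

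**Figure D3:**
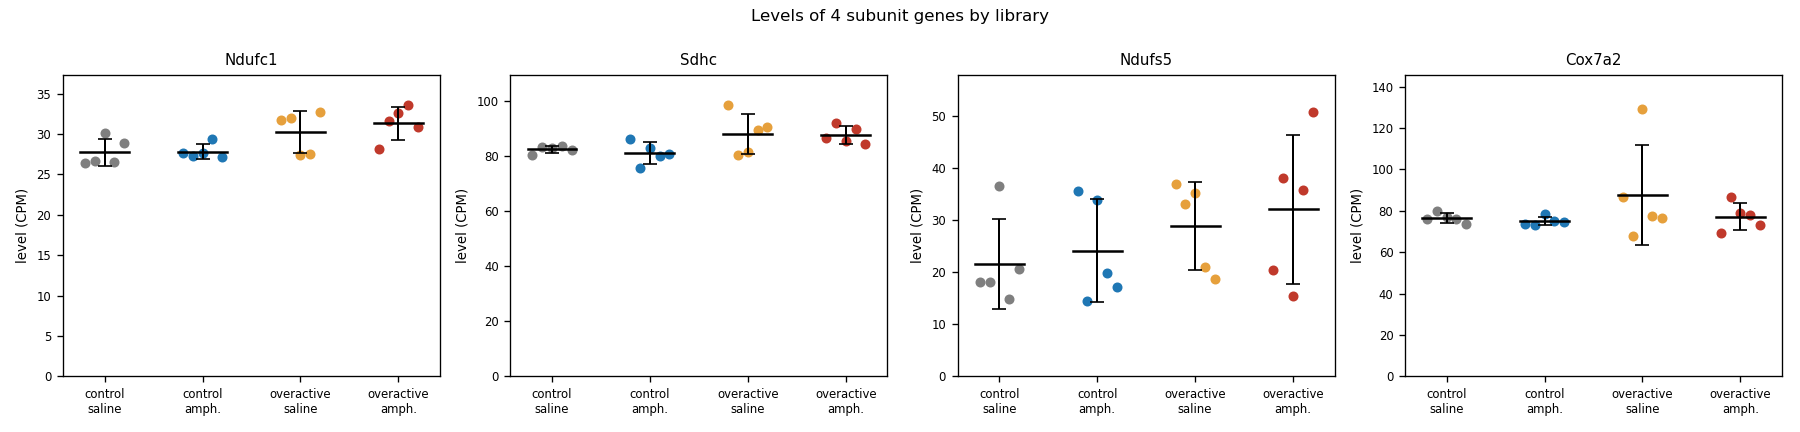
CPM of 4 subunit genes, 1 point per library, with the mean (bar) and SD (whisker) of 5 libraries; the axes start at 0. Ndufc1 and Sdhc are higher on average in the overactive line, and the lines overlap within each treatment, Ndufs5 splits into libraries at or below 20.9 and at or above 33.1 CPM inside each group, and Cox7a2 has 1 library at 129 CPM.

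Complex II, succinate dehydrogenase, is the only complex encoded wholly in the nucleus and also an enzyme of the TCA cycle. Sdhc encodes 1 of its membrane anchors. Its CPM were 80.4, 83.4, 83.0, 83.6 and 82.1 in control line saline and 86.3, 75.8, 82.9, 79.9 and 80.9 in control line amphetamine. They were 98.5, 80.4, 81.5, 89.5 and 90.7 in overactive line saline and 86.5, 92.1, 85.4, 89.8 and 84.5 in overactive line amphetamine. Of the 10 overactive libraries, 4 lay within the range of the control line and the other 6 above it. Over both treatments the line difference was log2 0.10 (SE 0.03) and did not pass (edgeR adjusted p = 0.0735), and DESeq2 gave the same size with an adjusted p of 0.0362. It passed in edgeR without overactive line saline 2 or overactive line saline 3 (lowest edgeR adjusted p = 0.0380). The flavoprotein gene Sdha, the highest of the complex per length at 130 CPM per kb, was at log2 -0.02 between the lines. Sdhb, the iron-sulfur subunit, was at -0.00. The other anchor, Sdhd, was at 0.01 and had a low level, 7.98 CPM.

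In complex III, ubiquinol-cytochrome c reductase, all 8 members had differences between the lines over both treatments from log2 -0.07 (Uqcr11) to 0.07 (Uqcrh and Uqcrq), and none passed. Uqcrc1, a core subunit, was at 161, 182, 164, 168 and 169 CPM in control line saline and 151, 168, 163, 167 and 161 CPM in control line amphetamine. It was at 179, 149, 173, 157 and 148 CPM in overactive line saline and 166, 172, 166, 175 and 172 CPM in overactive line amphetamine. The 5 overactive amphetamine libraries were the most alike, and they lay inside the range of overactive saline. The responses of the lines differed by log2 0.13 (edgeR adjusted p = 0.999927). Uqcrq, a small subunit near the quinone site, was at log2 0.07 (SE 0.03, edgeR adjusted p = 0.221) between the lines over both treatments. The Rieske iron-sulfur protein gene Uqcrfs1 was at 0.00 there.

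Complex IV, cytochrome c oxidase, has several subunits with tissue isoforms. In striatum the general isoform led in each group of isoforms, though Cox7a2 led Cox7a2l only when scaled by length. Levels between genes are compared per kb of annotated exon, which is approximate, because the gene models used for counting are not given in the sources used here. Cox4i1, which binds close to the catalytic core, was at 390 CPM per kb and Cox4i2, the isoform of lung and oxygen-sensing cells, at 1.08 CPM per kb. Cox6a1 was at 277 and the heart and muscle isoform Cox6a2 at 3.24 CPM per kb. Cox6b1 was at 211 and the testis isoform Cox6b2 at 1.15 CPM per kb, and Ndufa4 at 250 against 1.13 CPM per kb for Ndufa4l2. Cox7a2 was at 120 and Cox7a2l, a factor of supercomplex assembly, at 110 CPM per kb. That order rests on the annotated lengths of 659 and 1145 bases, since unscaled Cox7a2 had 79.1 CPM and Cox7a2l 126 CPM. Just outside the rule, with summed counts under 400 over all libraries, lay Cox7a1 (373), Cox7b2 (259) and Cox8b (137), all isoforms of other tissues. Cox8c was listed at 0, and just inside lay Cox4i2, Cox6b2 and Ndufa4l2.
Among the low isoforms, Cox4i2 had 0.689, 0.901, 0.576, 0.603 and 0.777 CPM in control line saline and 0.999, 0.959, 0.899, 1.33 and 0.888 CPM in control line amphetamine (log2 0.52, SE 0.18, edgeR adjusted p = 0.867). Among the amphetamine libraries 0.899 and 0.888 CPM fell just below the highest saline library, and the other 3 lay above it. In the overactive line it had 0.723, 0.846, 0.947, 0.888 and 0.685 CPM after saline and 0.737, 1.03, 0.841, 0.713 and 1.02 CPM after amphetamine (log2 0.08), and the groups overlapped, with the amphetamine libraries at 1.03 and 1.02 CPM above all of saline. Cox4i2 is known from pericytes among other cells, and the endothelial and pericyte markers were lower in sign in the control line comparison, as given above. The part of such cells in the Cox4i2 values was not tested. Cox6b2 was at log2 -0.68 (SE 0.28, edgeR adjusted p = 0.880) after amphetamine in the control line, with 0.530 to 1.39 CPM in saline and 0.475 to 0.792 CPM in amphetamine.
Cox6a2 had 1.75, 2.25, 1.62, 1.81 and 2.56 CPM in control line saline and 1.70, 1.73, 1.42, 2.11 and 2.57 CPM in control line amphetamine. It had 2.33, 3.16, 2.08, 1.89 and 2.17 CPM in overactive line saline and 2.21, 2.91, 2.38, 3.08 and 2.41 CPM in overactive line amphetamine. All groups overlapped, and the line difference over both treatments was log2 0.33 (SE 0.13, edgeR adjusted p = 0.114). The gene is also known from parvalbumin interneurons, whose marker Pvalb was not analysed here. The locus span of Cox6a2 also holds Itgad, so reads of the 2 genes may not be separate.
Cox7a2 had 129 CPM in overactive line saline 3, while the other 19 libraries had 67.8 to 86.8 CPM. The line difference in saline (log2 0.19) did not pass. Cox7b, with an SD within groups of 0.18, ran from 79.3 to 114 CPM, and in each group the lowest library was at 84.2 CPM or below and the highest at 109 CPM or above. Cox5b, a nuclear subunit of the matrix side that binds zinc, was at 148, 170, 162, 139 and 166 CPM in control line saline and 144, 143, 154, 149 and 153 CPM in control line amphetamine. In the overactive line it was at 148, 159, 153, 147 and 131 CPM after saline and 164, 162, 158, 155 and 151 CPM after amphetamine. The lower mean after amphetamine in the control line and the higher mean in the overactive line gave a difference of log2 0.17 (SE 0.08, unadjusted p = 0.0389), which did not pass (edgeR adjusted p = 0.999927). Cox5b was chosen after its values were seen, as were Cox5a after amphetamine over both lines (log2 -0.09, SE 0.04, edgeR adjusted p = 0.416) and Cox7c between the lines over both treatments (log2 0.05, SE 0.03, edgeR adjusted p = 0.186).

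Complex V, the ATP synthase, joins a catalytic F1 head to a membrane rotor. Atp5b, the catalytic beta subunit, had the highest level per length of the 79 rows with a length, at 533 CPM per kb, and Atp5a1, the alpha subunit, was at 282 CPM per kb. The locus span of Atp5b also holds Ptges3 and that of Atp5a1 holds Haus1, so reads of these genes may not be separate. Atp5b was at 1008, 1070, 1033, 1042 and 1065 CPM in control line saline and 1019, 1046, 1032, 1050 and 1019 CPM in control line amphetamine. It was at 1051, 946, 1011, 986 and 932 CPM in overactive line saline and 1037, 1038, 981, 1057 and 1005 CPM in overactive line amphetamine. Every library under 1008 CPM was of the overactive line, and all groups overlapped. The line difference in saline was log2 -0.08 (SE 0.04) and did not pass (edgeR adjusted p = 0.261). The 3 genes Atp5g1, Atp5g2 and Atp5g3 encode the same mature c subunit of the rotor, with different import peptides. Atp5g3 was at 201 and Atp5g2 at 68.3 CPM per kb. Atp5g1 was at 18.3 CPM per kb over an annotated length of 4912 bases, against 731 for Atp5g2. Its place below Atp5g2 rests on that length, since unscaled by length Atp5g1 had 89.9 CPM and Atp5g2 49.9 CPM. Atp5g1 was at log2 0.10 (SE 0.04, edgeR adjusted p = 0.145) between the lines over both treatments, and it passed without control line amphetamine 2 (edgeR adjusted p = 0.0491). Over both treatments Atp5g2 was at -0.03 and Atp5g3 at -0.00.

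The subunit genes varied little between mice of one group. Among the 71 subunit rows with a mean of at least 10 CPM, the median SD within groups was 0.083 on the log2 CPM scale, beside 0.119 in the 10627 genes tested at that level. An SD under 0.1 was found in 59 of the 71 (83.1%), beside 35.6% of those genes. Level differs between the members and those genes as well, since the members are among the higher. Ndufb4, whose SD was the median of the 71, was at percentile 20.1 of genes of like level. Atp5b (0.05), Cox7c (0.05) and Ndufa9 (0.05) varied least, all below percentile 3 of genes of like level, and were chosen after their values were seen. Ndufs5, Cox7a2 and Cox7b were at percentiles 98.6, 87.0 and 84.5.

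**Figure D4:**
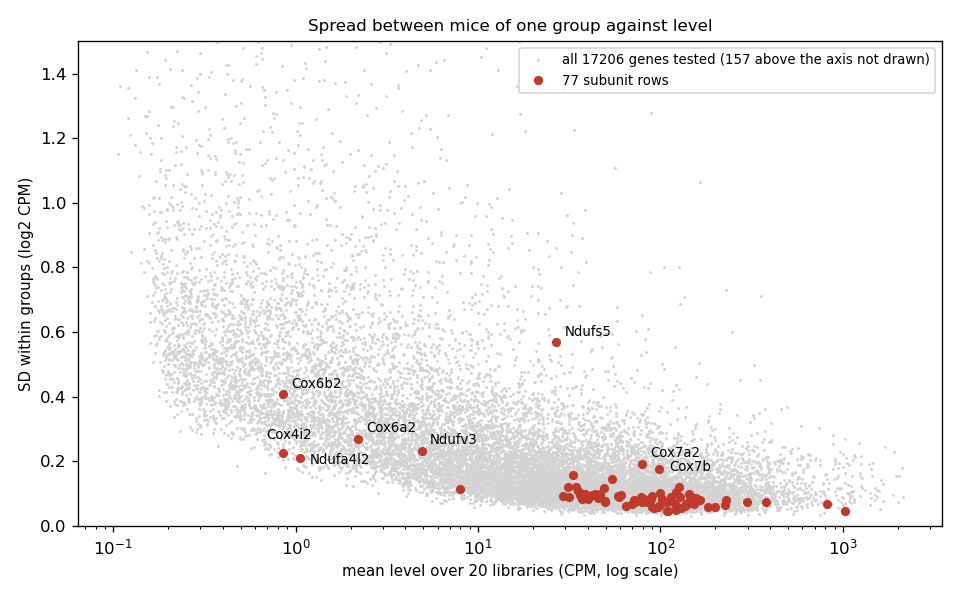
SD within groups (log2 CPM) against the mean level over 20 libraries (CPM, log scale), with the subunit rows in red over all genes tested in grey and members of wide spread named. Most red points lie low in the grey cloud, while Ndufs5 lies above most genes of its level.

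In some mice the members deviated together. A score per library was taken as the mean deviation of the members' log2 CPM from their mean over the 20 libraries, and it ran from -0.06 to 0.11. Overactive line saline 1 was highest (0.11), with 70 of 77 rows above their mean and 26 rows at their highest level there. Overactive line amphetamine 2 followed (0.10), with 67 rows above their mean. Overactive line saline 2 was lowest, with 14 rows above their mean and 16 at their lowest level. All 5 complexes were above 0 in 4 libraries and below 0 in 5 libraries, and in the other 11 the signs were mixed. The scores of the control line amphetamine libraries lay between -0.05 and 0.01, the narrowest group.
The 2 libraries with the highest subunit scores also had the 2 highest scores of thalamic, hypothalamic and septal markers. The next, overactive line amphetamine 4 (0.05) and control line saline 2 (0.04), did not, with marker scores of -0.24 and -0.02. The 4 highest in those markers were overactive line amphetamine 2 (1.18 as mean log2 deviation), overactive line saline 1 (1.15), overactive line amphetamine 3 (0.97) and overactive line saline 4 (0.81). The subunit scores of the last pair were -0.02 and -0.03, so high markers did not go with a high subunit score in each library. Without these 4 libraries no member passed in any comparison, and the median of complex II between the lines in saline was -0.09 in place of -0.02. At an unadjusted edgeR p under 0.05 stood 9 members for the line in saline, against 2 with all libraries (2757 genes against 2978). For amphetamine in the overactive line it was 5 against 0 (2395 against 1382), and over both lines 8 against 4 (2663 against 1895). For the difference between responses it was 6 against 1 (1228 against 510). The line under amphetamine went from 4 to 1 (2212 to 1444), and the other counts of members did not change. Scores of the striatal projection neuron markers were -0.42 in overactive line saline 1 and -0.28 in overactive line amphetamine 2. They were -0.25 in overactive line amphetamine 4 and 0.21 in control line saline 2. In overactive line saline 4 and overactive line amphetamine 3, with subunit scores of -0.03 and -0.02, they were -0.26 and -0.23. The part of these tissues in the subunit values was not tested.

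**Figure D5:**
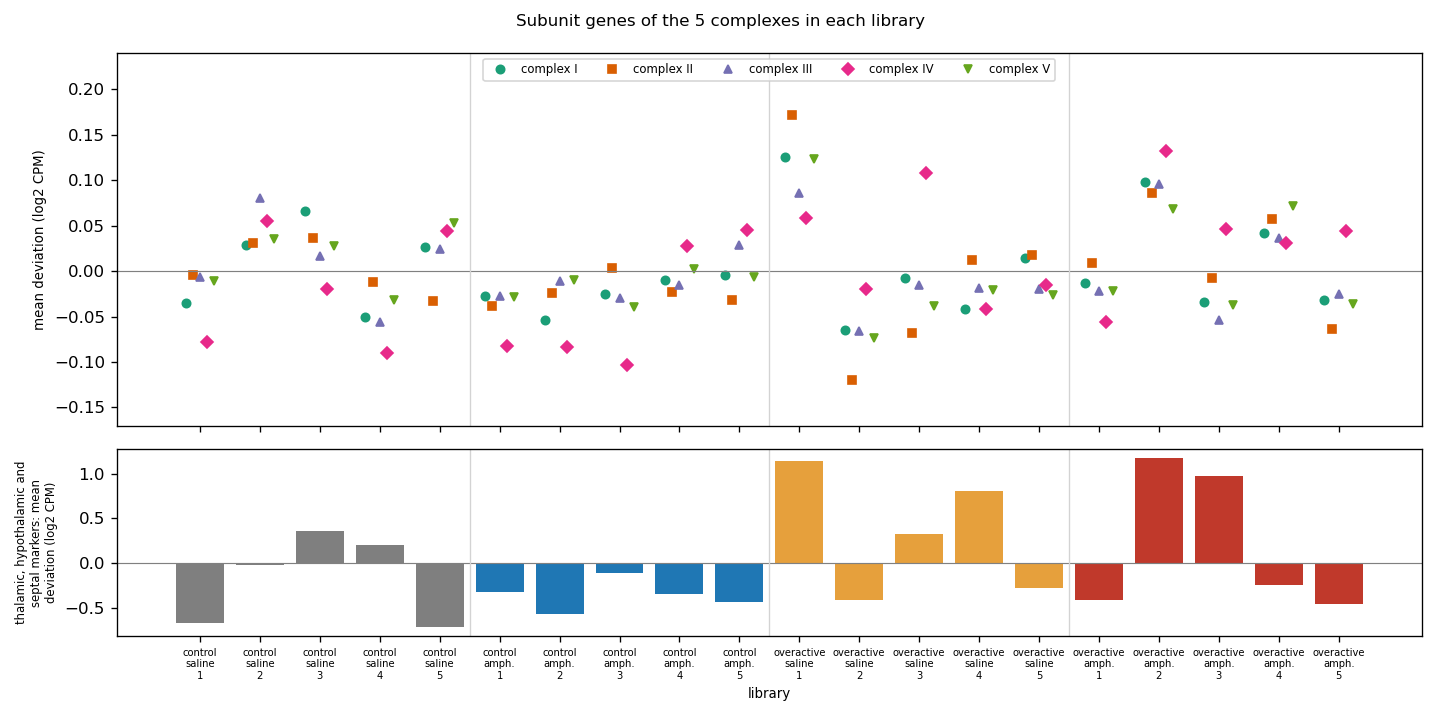
Top, mean deviation of log2 CPM of the members of each complex from their mean over the 20 libraries, 1 symbol per complex and library; bottom, the same measure for 10 thalamic, hypothalamic and septal markers. The 5 symbols sit together above 0 in overactive line saline 1 and overactive line amphetamine 2, and together below 0 in overactive line saline 2.

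Other genes of the pathway were read from lists chosen by name. Of 42 tested assembly factors, which insert cofactors or build the complexes, 0 passed as higher and 4 as lower in the overactive line over both treatments (edgeR). Cox15, needed for the heme of cytochrome c oxidase, was at 33.2 ± 1.94 CPM (SD, n = 5) in control line saline, 33.4 ± 1.94 in control line amphetamine, 28.0 ± 1.32 in overactive line saline and 26.9 ± 3.16 in overactive line amphetamine. It fell by 0.28 on the log2 scale (edgeR adjusted p = 0.00295). Tmem70, needed to build the ATP synthase, was at log2 -0.19 (edgeR adjusted p = 0.00460), and it also passed in saline alone (-0.24, edgeR adjusted p = 0.0299). Ecsit, an assembly factor of complex I, was at -0.21 (edgeR adjusted p = 0.00685). AI462493, now Uqcc3, an assembly factor of complex III, was at -0.21 (edgeR adjusted p = 0.0461). Beside these 4 of 42, 7.02% of all genes were called (3.31% lower). The calls of Cox15, Tmem70 and Ecsit over both treatments held in all 20 fits that left out 1 library, and that of AI462493 in 5. Without the 4 libraries highest in thalamic markers, all of the overactive line, Cox15 still passed (log2 -0.25, edgeR adjusted p = 0.0479). Tmem70 (edgeR adjusted p = 0.0626), Ecsit (0.0818) and AI462493 (0.0952) did not, in a fit that also had fewer libraries. The call of Tmem70 in saline was lost there too (edgeR adjusted p = 0.0877) and in 7 of the 20 fits, and that of AI462493 without the filter on low counts (edgeR adjusted p = 0.0593). Of the members themselves, none passed as lower in this comparison.
Of 20 tested regulators of mitochondrial biogenesis, 1 passed over both treatments, the mitochondrial transcription factor gene Tfb2m (log2 0.18, edgeR adjusted p = 0.0402). Of 16 tested TCA cycle genes, 1 passed, Suclg2 (0.25, edgeR adjusted p = 0.0440). Of 71 tested genes of the mitochondrial ribosome, 3 passed, all lower: Mrps10 (-0.20), Mrpl41 (-0.30) and Mrpl11 (-0.14). Beside the counts of these lists, 7.02% of all genes were called in this comparison (3.71% higher and 3.31% lower). Of these 5 genes, Tfb2m and Mrps10 still passed without the 4 libraries (edgeR adjusted p = 0.0425 and 0.0309), and the call of Mrps10 held in 19 of 20 fits that left out 1 library. Those of the other 4 held in 5 to 7. Without the filter on low counts Tfb2m (edgeR adjusted p = 0.0529), Suclg2 (0.0528) and Mrpl11 (0.0612) did not pass. In the comparisons of amphetamine with saline none of these lists had a member that passed, beside 0% of all genes called by edgeR.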

How the data were processed

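The authors deposited 1 table of expected counts per locus, not scaled between libraries (93.9% of values were whole within 0.01), with a symbol and the span of the locus. Builds mm10 and GRCm38 are named in the submitters' processing notes; the aligner and counter are not given in the sources used here, so reads shared with pseudogene copies or overlapping genes (28 of 80 spans hold another coding gene) may have been split or summed. Loci without a symbol (0.65% of counts) were left out. Subunit genes in loci shared by several symbols (Ndufs8, Ndufb2) were outside the rule.

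Expected counts were rounded and analysed in R 4.3.3 with edgeR 4.0.16: filterByExpr on the 4 groups, TMM, 1 quasi-likelihood model with 1 mean per group over 20 libraries, 7 contrasts, two-sided. Library scores used log2 CPM with a prior count of 2. Exon lengths came from GENCODE M21 (79 of 80 rows matched, 2 through an older symbol). Alternatives were RLE and total count scaling, no filter, a replicate block, fits of only the groups compared, DESeq2 1.42.0, a prior count of 0.5 and leaving out each library; leaving out together the 4 libraries with the highest thalamic marker scores was added after the data were seen. The model was tested on simulated data. Named were members that passed, the 2 of each complex with the smallest p, core subunits, isoform groups, and members of other lists that passed, at most 3 per list and comparison, to which AI462493 was added as the only other assembly factor called. The values of 1 core subunit that the rule names are not reported here. Members, lists and comparisons were chosen with earlier results of these data known. Figures used matplotlib 3.10.9 under Python 3.11.15.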

Additional observations from a re-analysis of the deposited data

Results flagged for a closer look

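In 140 sets of 5 values (30 named members and 5 complex scores in 4 groups), 11 held a library whose gap to the nearest other exceeded 0.71 of the range of the set (Dixon's criterion), where chance gives about 1 in 20, or 7. They were Ndufs5 in control line saline 3 (36.7 CPM, the next at 20.6), Ndufa4 in control line saline 4 (139.5 CPM, the next at 154.1), Atp5g1 and Cox5a in control line amphetamine 2 (99.8 and 121 CPM), Cox4i2 and Ndufc1 in control line amphetamine 4 (1.33 and 29.4 CPM) and Cox6a1 in control line amphetamine 5 (168 CPM). In the overactive line they were Sdhb in saline 1 (101 CPM, the next at 89.9), Cox7a2l in amphetamine 2 (149 CPM), Cox8a in amphetamine 4 (258 CPM, the next at 232.7) and the complex V score of saline 1 (0.12, the next at -0.02). The high complex V score and the high Sdhb belong to the same library, in which 70 of 77 rows were above their mean.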

How the results depend on the processing

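Over both treatments the number of members that passed between the lines was 1, and it was 0 without the filter on low counts, 0 with the replicate block, 0 without the 4 libraries highest in thalamic markers, 2 with DESeq2 and 0 to 2 when 1 library was left out. With RLE scaling it was 1. In the other 6 comparisons it was 0 in every setting run. Counts over all genes moved more. For amphetamine in the overactive line they were 0, against 40 with DESeq2 and 31 without the 4 libraries. For amphetamine over both lines they were 0, against 161 and 80, and 0 to 4 with 1 library left out. For the line in saline they were 191, against 764 and 95, and 67 to 240 with 1 left out. For the line under amphetamine they were 78, against 322, 17 and 50 with only the groups compared, and 23 to 88 with 1 left out. For the line over both treatments they were 1208, against 2095 and 323, and 770 to 1414 with 1 left out. The 4 libraries were all of the overactive line, so the fit without them also had fewer libraries of that line. The cause was not tested.

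The replicate numbers were tried as a block, although nothing in the labels ties a number to a litter or day. Libraries of equal number correlated at -0.23 to 0.25 in their deviations (10 of 30 pairs above 0.1), and 5 of 20 libraries correlated best with their own number. With the block, 187 genes passed between the lines in saline, 51 after amphetamine and 1225 when both treatments were joined, and 0 in the comparisons of amphetamine with saline. Ndufc1 stayed at log2 0.15 under the block and did not pass. Of the other genes named as passing, Tmem70 in saline (edgeR adjusted p = 0.0575), Tfb2m (0.0616) and Suclg2 (0.0588) did not pass with the block either.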
